A study of Mus musculus with 4 samples.

Results

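The serpins are a superfamily of protease inhibitors, and the members described here are the mouse genes whose symbol starts with Serpin, with pseudogenes named -ps left out. This gave 63 of the 39179 genes in the count files: 27 of clade b, 35 of the secreted clades a, c, d, e, f, g and i, and Serpinh1 of clade h. RNA of C57BL/6-background mouse skin was sequenced in 4 libraries: 2 of wild-type (WT) skin and 2 of lesional skin from animals lacking Itch (Itch KO). Itch is a ubiquitin ligase, and the labels give no age, sex, skin site or targeted allele. They list inflammation as the phenotype of every sample, the WT samples included. Since nothing in them shows that replicate libraries are separate animals, a p-value here reflects only library-to-library spread, which may be technical. The comparison asked how WT skin and lesional Itch KO skin differ.

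A serpin carries an exposed reactive loop that a target protease cuts as if it were a substrate. The cut loop folds into the body of the serpin and traps the protease in an inactive complex, so the sequence of the loop sets which proteases are inhibited. Clade b serpins lack a classical signal peptide and work mainly inside cells, and several are made by keratinocytes, where they restrain cathepsins and serine proteases. The secreted clades act in plasma and in the tissue matrix, on clotting, fibrinolysis, complement and leukocyte proteases. A few serpins inhibit nothing, among them Serpinf1, an antiangiogenic factor, and Serpinh1, a collagen chaperone of the endoplasmic reticulum.

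Gene counts per library ran from 15144957 to 16008351. Itch stood at 96.7 and 103 CPM (read counts scaled for library depth) in the WT libraries and at 11.7 and 11.7 CPM in the Itch KO libraries, on the labelled side in each. Levels of Xist, the RNA of the inactive X, were 1055 and 631 CPM in WT, against 0.947 and 0.892 CPM in Itch KO, so genotype and sex cannot be told apart. The WT libraries also differed from each other in tissue content. Summed skeletal muscle markers (for 8 of 8, both Itch KO libraries lay below both WT libraries, which "lower" means for markers here) reached 16248 CPM in the WT 1 library, 2663 in WT 2, and 1267 and 1049 in Itch KO. Summed hair shaft and root sheath markers stood at 38.5 and 8053 CPM in WT, against 6195 and 8919 in Itch KO. In such bulk samples, fewer cells of a type and less RNA per cell cannot be told apart.

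Of the 63 members, 39 passed the filter on low counts and were tested, 19 of clade b, 19 of the secreted clades and Serpinh1. None passed an adjusted p of 0.05 in edgeR's quasi-likelihood test over 16651 genes, where 1 gene, or 0.00601%, passed. With the p left unadjusted and under 0.05, 14 members were higher in Itch KO and 10 lower, or 35.9% and 25.6% of those tested, beside 12% and 10.9% of all tested genes. DESeq2 called 12 higher and 10 lower, beside 7.83% and 6.16% of all tested genes. Both Itch KO libraries lay above both WT libraries for 17 members and below for 12, beside 31.2% and 30% of all tested genes. Together 29 of 39 did not overlap, beside 61.2% of all tested genes. The absolute log2 fold change had a median of 1.47 over the members and 0.42 over all tested genes. With edgeR, 14 members and 1317 of all genes passed without WT replicate 1, and 24 members and 5320 genes without WT replicate 2, fits that give the remaining WT library the spread seen between the Itch KO libraries. Without Itch KO replicate 1 or 2, 0 members and 0 genes passed.

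The total serpin mRNA was of similar size in all libraries, but its makeup differed between the genotypes. Per kilobase of exon, the sum over all members was 1374 and 1390.1 CPM in WT, against 1429 and 1503 in Itch KO. Clade b summed to 874 and 927 CPM per kb in WT and to 591 and 622 in Itch KO. This was 63.6% and 66.7% of serpin mRNA in WT and 41.4% and 41.4% in Itch KO. Within clade b the groups separated on chromosome 1, at 722 and 588 CPM per kb in WT, against 432 and 465 in Itch KO. That separation rests largely on the abundant genes Serpinb5 and Serpinb7 and does not describe the cluster as a whole. Serpinb5 stood at 304 and 312 CPM per kb in WT, against 218 and 233 in Itch KO. Serpinb7 stood at 209.6 and 104 CPM per kb in WT, against 35.5 and 30.02 in Itch KO. The clade b sums of chromosome 13 overlapped, at 152 and 338 against 159 and 157. Serpinb6d of that cluster stood at 59.5 and 269 CPM per kb in WT. The secreted clades summed to 430 and 371 CPM per kb in WT and to 664 and 649.6 in Itch KO. The groups separated outside clade a: clades c, d, e, f, g and i together stood at 127 and 115 CPM per kb in WT, against 383 and 368 in Itch KO, whereas the clade a sums of 302 and 256 against 281 and 282 overlapped. Serpinh1 stood at 70.4 and 92.9 CPM per kb in WT, against 173 and 232 in Itch KO. With 2 libraries against 2, an exact two-sided permutation test of such a sum cannot go below p = 0.333, so the sums carry no test.

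**Figure D1:**
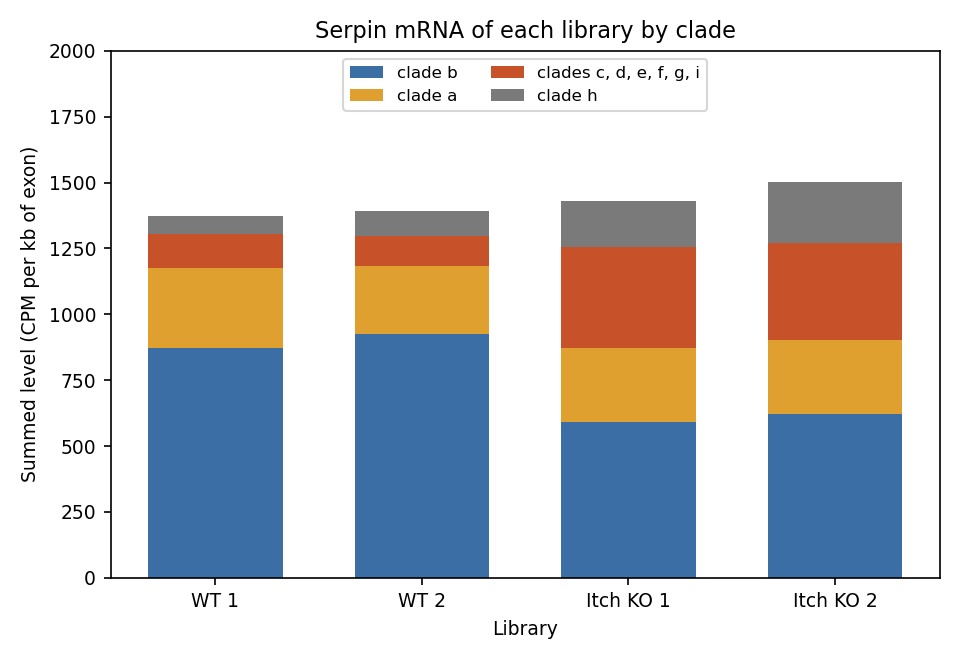
Summed serpin level (y axis, CPM per kb of exon) in each of the 4 libraries (x axis), with stacked bars for clade b, clade a, clades c to i without h, and clade h. The whole bars run from 1374 to 1503, while the clade b part is 874 and 927 in WT and 591 and 622 in Itch KO.

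The clades also differed in their fold changes. The median log2 fold change was -0.13 over the tested members of clade b, 1.23 over those of the secreted clades and 0.01 over all tested genes. Neither class was uniform. Within clade b the median was -0.26 on chromosome 1 and 0.47 on chromosome 13. Within the secreted clades it was 0.56 over clade a and 1.36 over clades c, d, e, f, g and i. The gap between the clades, clade b minus secreted, was -1.36. It was -0.77 without WT replicate 1, -0.80 without Itch KO replicate 1 and -0.65 with no filter on low counts. The secreted median was 0.78 without Itch KO replicate 1. The clade b median itself turned positive in several fits: 0.20 without WT replicate 1, 0.10 without Itch KO replicate 2, 0.16 at a minimum count of 30 and 0.25 with no filter. Clade b went both ways, with 7 of 19 members above and 8 below WT in both Itch KO libraries, against 9 and 4 of 19 in the secreted clades, beside 31.2% and 30% of all tested genes. The classes follow the clade letter of the symbol, and secretion of single members was not checked. Serpina3h, annotated as a transcribed pseudogene, counts among the secreted clades, and Serpinb10, a polymorphic pseudogene, in clade b. Members are not replicates, and no test was run between the clades.

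**Figure D2:**
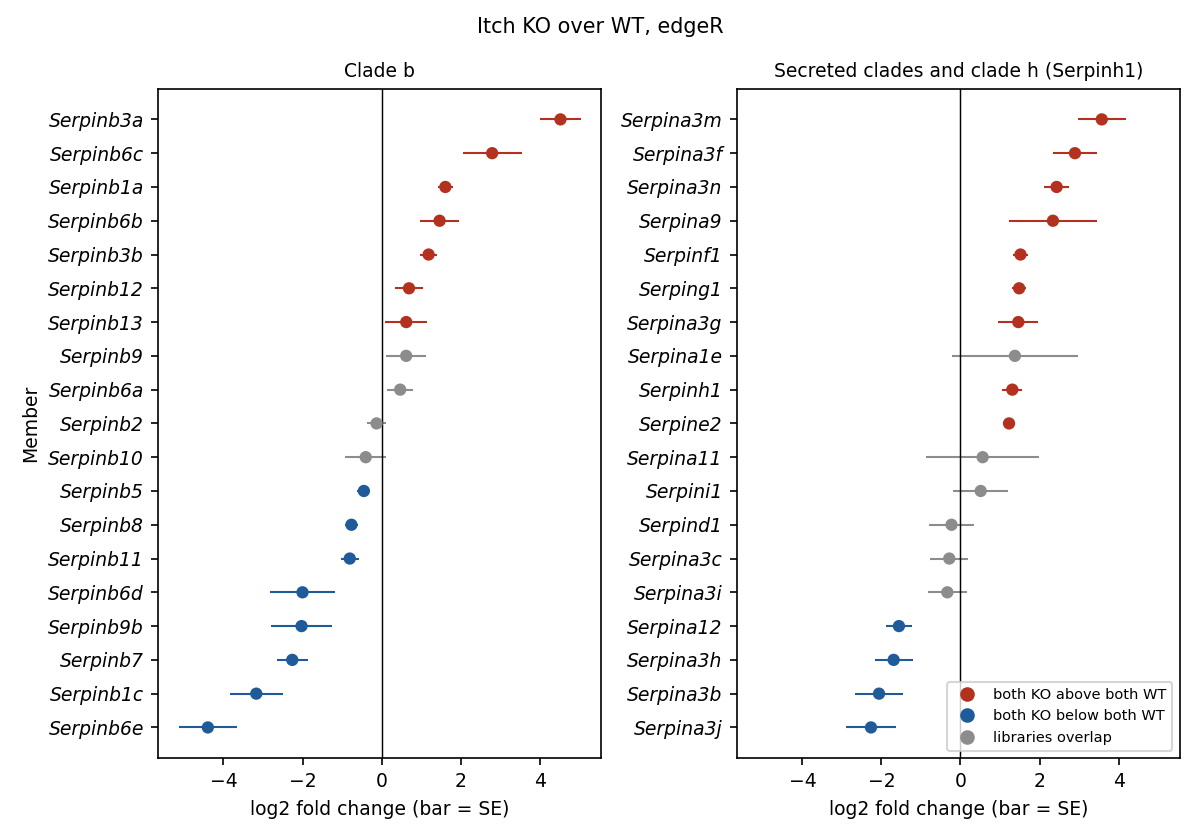
Log2 fold change of Itch KO over WT with its SE (x axis) for 38 tested members (y axis), clade b on the left, the secreted clades and Serpinh1 on the right. Red marks the 16 drawn members with both Itch KO libraries above both WT libraries, blue the 12 with both below, and grey the 10 whose libraries overlap.

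Serpinb5, Serpinb7, Serpinb8 and Serpinb11 of clade b stood lower in Itch KO. Serpinb5 (maspin, an epithelial serpin that does not inhibit proteases) had the highest level per kb of all serpins in every library. It stood at 835 and 858 CPM in WT, against 601 and 639.8 in Itch KO, a 1.36-fold difference (log2 fold change -0.45, SE 0.17, edgeR adjusted p = 0.219). Serpinb7, whose loss in humans causes a palmoplantar keratosis, stood at 410.3 and 204 CPM in WT, against 69.5 and 58.7 in Itch KO. The groups did not overlap, although the WT libraries lay further from each other in CPM than from the Itch KO libraries at the nearest point. Its level per kb was 209.6 and 104 CPM in WT and 35.5 and 30.02 in Itch KO (log2 fold change -2.26, SE 0.39, edgeR adjusted p = 0.0898). Serpinb8, mutated in a peeling skin disorder, stood at 217 and 185 CPM against 116 and 121 (log2 fold change -0.76, SE 0.16). Serpinb11, a clade b member of epithelia, stood at 49.7 and 40.6 CPM against 22.9 and 28.9 (log2 fold change -0.80, SE 0.22). In all 4 genes neither group reached into the other. Beside them, summed suprabasal keratinocyte markers (6 of 7 lower) stood at 11386 and 12717 CPM in WT, against 7902 and 9483 in Itch KO, and summed basal keratinocyte markers (1 of 7 higher, 3 lower) at 9691 and 7820.1 against 7879 and 8402. Summed markers of wound keratinocytes (6 of 6 higher) went the other way, at 807 and 2477 CPM against 6811 and 8023. Their part in these results and in those of Serpinb3a was not tested.

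Other clade b genes of the same cluster on chromosome 1 did not follow. Serpinb2 (plasminogen activator inhibitor type 2) stood at 271 and 190.8 CPM in WT, against 195 and 228 in Itch KO, with overlapping libraries. Serpinb12, of stratified epithelia, stood at 31.0 and 55.4 CPM against 58.2 and 81.4, and Serpinb13, an inhibitor of lysosomal cathepsins, at 1.40 and 3.28 against 3.47 and 3.76. For both, the higher WT library lay just under the lower Itch KO library. Serpinb10, annotated as a polymorphic pseudogene, stood at 3.67 and 1.70 CPM against 2.21 and 1.85. It shares 291 exonic bases with Serpinb2 on the same strand, so reads there cannot be told apart by position. Serpinb2 and Serpinb10 changed sign without WT replicate 1, to log2 fold changes of 0.15 and 0.25.

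The Serpinb3 genes, mouse counterparts of the human squamous cell carcinoma antigens, are close copies in the same cluster, and Serpinb3a had the largest fold change of the tested clade b genes there. Their coding sequences are 86.5% to 93.4% identical. The stretches of 66 bases that code for the reactive loop are shown because the loop sets the target protease. They were taken from the GENCODE vM21 transcripts, start at the conserved hinge of the loop, and have in capitals each base that differs from Serpinb3a.
Serpinb3a (GRCm38 chr1:107046109-107046174, minus strand): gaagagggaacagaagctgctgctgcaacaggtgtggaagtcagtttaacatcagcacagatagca
Serpinb3b (GRCm38 chr1:107154462-107154527, minus strand): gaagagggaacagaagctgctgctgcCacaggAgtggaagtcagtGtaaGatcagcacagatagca
Serpinb3d (GRCm38 chr1:107078286-107078351, minus strand): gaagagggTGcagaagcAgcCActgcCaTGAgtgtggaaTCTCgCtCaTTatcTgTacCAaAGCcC

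Serpinb3b differs from Serpinb3a at 4 of these bases and Serpinb3d at 25. Serpinb3a stood at 0.933 and 0.694 CPM in WT (14 and 11 counts) and at 25.1 and 12.7 CPM in Itch KO (397 and 199 counts). The lower Itch KO library lay far above both WT libraries (log2 fold change 4.52, SE 0.51, edgeR adjusted p = 0.0624). Serpinb3b was already present in WT, at 16.5 and 14.7 CPM, and stood at 32.4 and 38.9 in Itch KO (log2 fold change 1.19, SE 0.21, adjusted p = 0.0916 in edgeR). Serpinb3d had 0 and 1 counts in WT, 6 and 6 in Itch KO, and Serpinb3c 1, 0, 0 and 1, both under the filter. Of the 50-base windows of their transcripts, 15.0% in Serpinb3a and 14.7% in Serpinb3b occur unchanged in another gene. These shares count exact matches only, and how reads of near-identical copies were treated is not shown.

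**Figure D3:**
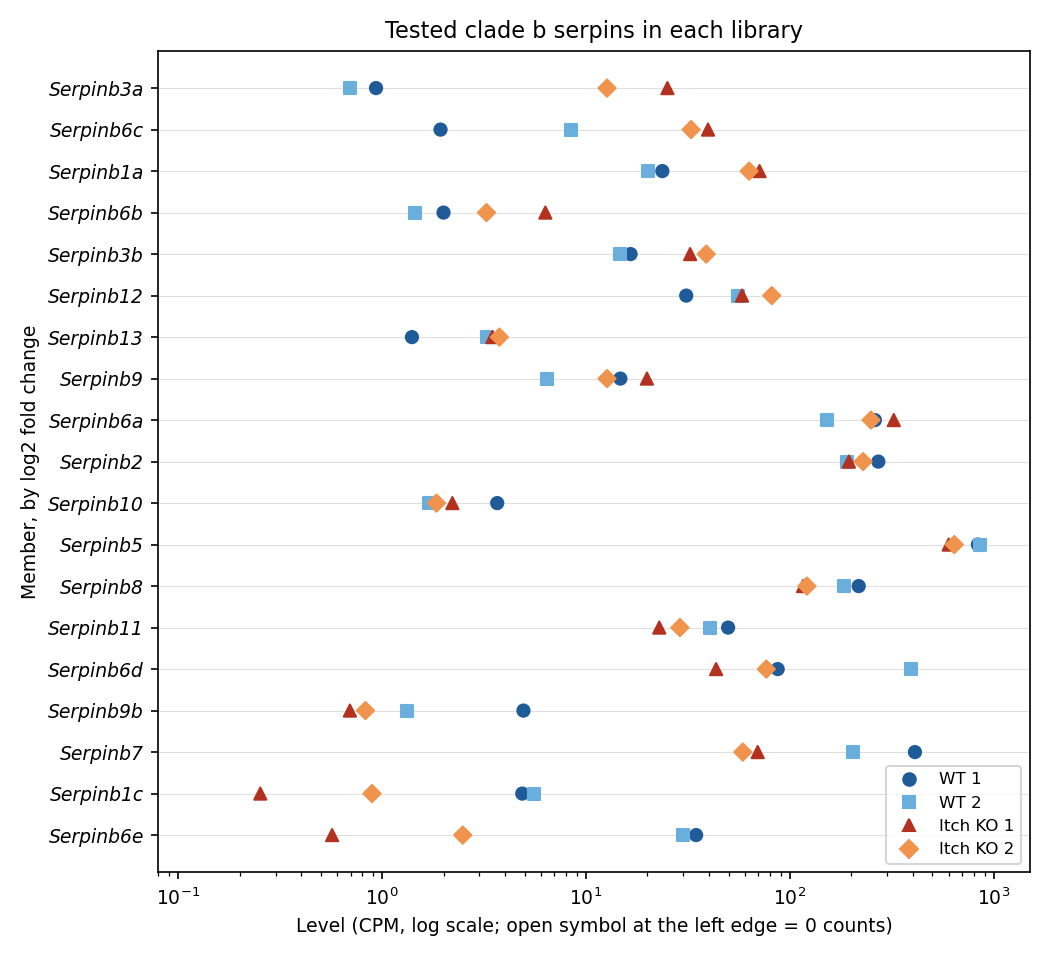
Level in CPM (x axis, log scale) of the 19 tested clade b members (y axis, ordered by log2 fold change) in each library, circles and squares for WT 1 and 2, triangles and diamonds for Itch KO 1 and 2. Serpinb3a is separated furthest upward, and Serpinb6e and Serpinb1c, with Itch KO levels from 0.253 to 2.48 CPM, furthest downward.

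The clade b cluster of chromosome 13 held close relatives with opposite differences. Serpinb1a, an inhibitor of neutrophil elastase, proteinase 3 and cathepsin G, stood at 23.7 and 20.1 CPM in WT, against 70.9 and 63.1 in Itch KO (log2 fold change 1.61, SE 0.18, edgeR adjusted p = 0.0624). Its copy Serpinb1c stood at 4.87 and 5.55 CPM against 0.253 and 0.892 (log2 fold change -3.17, SE 0.67). The coding sequences of the Serpinb1 genes are 87.7% to 90.6% identical, and 2.81% of Serpinb1a windows and 6.28% of Serpinb1c windows are shared with another gene. Beside Serpinb1a, which neutrophils also make, summed neutrophil markers (7 of 7 higher) stood at 36.7 and 54.2 CPM in WT, against 2136 and 961 in Itch KO, and their part was not tested. Serpinb9, the inhibitor of granzyme B, overlapped between the groups at 14.7 and 6.44 against 19.9 and 12.7 CPM. Serpinb9b stood at 4.93 and 1.33 CPM against 0.695 and 0.828, with an unadjusted p of 0.0523 in edgeR.

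Within the Serpinb6 family the groups separated upward for some members and downward for others. Serpinb6c stood at 1.93 and 8.46 CPM in WT, against 39.7 and 32.7 in Itch KO (log2 fold change 2.80, SE 0.75). Serpinb6b stood at 2.00 and 1.45 CPM against 6.32 and 3.25 (log2 fold change 1.47, SE 0.50). In the other direction, Serpinb6e stood at 34.7 and 29.9 CPM in WT, against 0.568 and 2.48 in Itch KO, the lowest fold change of any serpin (log2 fold change -4.40, SE 0.74, edgeR adjusted p = 0.0873). Serpinb6d stood at 87.1 and 393 CPM against 43.5 and 76.6, so that WT replicate 1 lay close to the Itch KO libraries and the log2 fold change of -2.00 was -0.53 without WT replicate 2. Serpinb6a, an inhibitor of cathepsin G, overlapped at 261 and 153 against 323 and 249.8 CPM. Its exons share bases with Nqo2, Ripk1 and 1110046J04Rik on the other strand, 25.1% of its windows occur in other genes, and the strand setting of the counting is not given in the sources used here. The loop stretches of 3 of these relatives, with capitals where a base differs from Serpinb6a, show how far they diverge where the target is chosen.
Serpinb6a (GRCm38 chr13:33918134-33918199, minus strand): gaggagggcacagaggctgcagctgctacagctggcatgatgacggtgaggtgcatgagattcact
Serpinb6c (GRCm38 chr13:33880021-33880086, minus strand): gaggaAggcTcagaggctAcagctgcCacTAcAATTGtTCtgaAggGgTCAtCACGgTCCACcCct
Serpinb6e (GRCm38 chr13:33832549-33832614, minus strand): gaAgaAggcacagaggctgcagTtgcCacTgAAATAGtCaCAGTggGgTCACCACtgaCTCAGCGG

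Serpinb6c differs from Serpinb6a at 28 of the 66 loop bases and Serpinb6e at 32. Across whole coding sequences, Serpinb6a is 86.8% identical to Serpinb6c and 78.2% to Serpinb6e, so differences are denser in the loop than over the whole. Copies of this family share few windows, 9.92% in Serpinb6c, 3.01% in Serpinb6d and 0.951% in Serpinb6e, and the opposite differences are therefore between largely distinct transcripts.

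Of the secreted serpins that act on clotting and complement proteases, Serpine2 and Serping1 stood higher in Itch KO, whereas Serpind1 overlapped between the groups and Serpinc1 was not tested. Serpine2 (protease nexin, an inhibitor of thrombin and plasminogen activators bound to the cell surface and matrix) stood at 46.7 and 48.2 CPM in WT, against 110.3 and 112 in Itch KO, with little spread in either group (log2 fold change 1.23, SE 0.14, edgeR adjusted p = 0.0624). Serping1 (C1 inhibitor, which blocks the first proteases of complement and plasma kallikrein) stood at 161 and 154 CPM against 482 and 399 (log2 fold change 1.48, SE 0.18, edgeR adjusted p = 0.0638). Per kb it ranked 2 and 3 among serpins in the Itch KO libraries.

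The non-inhibitory serpins of connective tissue stood higher as well. Serpinf1 (pigment epithelium-derived factor) stood at 118 and 95.2 CPM in WT, against 316 and 294 in Itch KO (log2 fold change 1.52, SE 0.18, edgeR adjusted p = 0.0632). Serpinh1 stood at 172 and 227 CPM against 424 and 566 (log2 fold change 1.31, SE 0.25, edgeR adjusted p = 0.101). For both genes the groups were well apart. Beside these and Serpine2, summed fibroblast markers (7 of 7 higher) stood at 1751 and 3149 CPM in WT, against 13517 and 12280.1 in Itch KO, and their part was not tested. Summed macrophage and monocyte markers (9 of 9 higher) stood at 379 and 369 CPM against 2960.4 and 1935. Serpind1 (heparin cofactor) and Serpini1 (neuroserpin) were low and overlapped, at 1.93 and 0.821 against 1.2 and 1.15 CPM and at 0.60 and 2.15 against 1.71 and 2.23 CPM. Both changed sign without WT replicate 1, to log2 fold changes of 0.51 and -0.13.

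**Figure D4:**
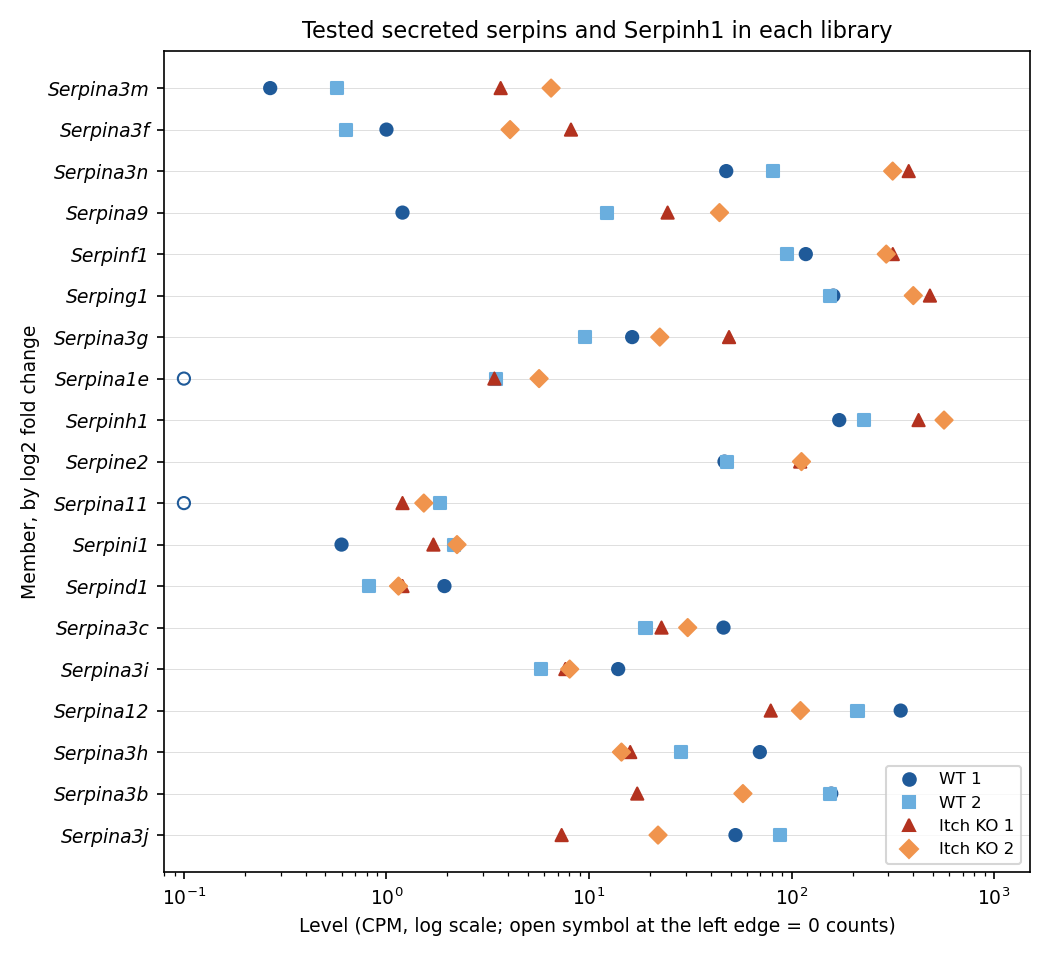
Level in CPM (x axis, log scale) of 18 tested secreted members and Serpinh1 (y axis, ordered by log2 fold change) in each library, circles and squares for WT 1 and 2, triangles and diamonds for Itch KO 1 and 2, open symbols for 0 counts. Serpina3m and Serpina3f are separated upward and Serpina3j and Serpina3b downward, and Serpina1e and Serpina11 have 0 counts in WT replicate 1 alone.

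In clade a, Serpina3n, an acute-phase serpin and inhibitor of granzyme B, cathepsin G and elastase, was the leading member of Itch KO skin. It stood at 47.6 and 81.0 CPM in WT, against 379 and 316 in Itch KO (log2 fold change 2.43, SE 0.32, edgeR adjusted p = 0.0703). Its neighbours were split. Serpina3m stood at 0.267 and 0.568 CPM against 3.66 and 6.50 (log2 fold change 3.57, SE 0.61), Serpina3f at 1.00 and 0.631 against 8.15 and 4.08 (2.90, SE 0.56), and Serpina3g, an interferon-responsive serpin of leukocytes, at 16.3 and 9.59 against 49.1 and 22.4 (1.46, SE 0.50). These copies were higher in both Itch KO libraries. Serpina3b stood at 157 and 155 CPM in WT against 17.3 and 57.5 (-2.06, SE 0.61), Serpina3j at 52.9 and 87.5 against 7.33 and 21.9 (-2.26, SE 0.62), and Serpina3h, annotated as a transcribed pseudogene, at 69.7 and 28.5 against 15.98 and 14.5 (-1.69, SE 0.48), with the brackets giving log2 fold changes. These copies were lower in both. Serpina3c (46.1 and 19 against 22.8 and 30.7 CPM) and Serpina3i (13.9 and 5.81 against 7.64 and 8.03 CPM) overlapped and changed sign without WT replicate 1, to log2 fold changes of 0.49 and 0.43.

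Coding sequences of the Serpina3 family are 70.1% to 92.0% identical, and their loops are known for rapid divergence. The lowest identities come from pairs with Serpina3g, which aligned over only 642 to 744 coding bases. The lowest pair without Serpina3g, Serpina3b and Serpina3i, was 74.9% identical over 1224 bases. Loop stretches of members that stood higher (Serpina3n, Serpina3m, Serpina3f) and of Serpina3j, which stood lower, are shown for comparison, since this is the part that sets the target. Capitals mark bases that differ from Serpina3n.
Serpina3n (GRCm38 chr12:104413442-104413507, plus strand): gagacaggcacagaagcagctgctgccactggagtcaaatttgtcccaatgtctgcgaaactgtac
Serpina3m (GRCm38 chr12:104393763-104393828, plus strand): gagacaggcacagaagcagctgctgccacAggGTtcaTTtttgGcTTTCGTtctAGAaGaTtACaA
Serpina3f (GRCm38 chr12:104220239-104220304, plus strand): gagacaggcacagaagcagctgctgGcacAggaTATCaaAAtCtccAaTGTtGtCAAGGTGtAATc
Serpina3j (GRCm38 chr12:104319680-104319745, plus strand): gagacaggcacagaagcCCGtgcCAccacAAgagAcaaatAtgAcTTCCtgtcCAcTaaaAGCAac

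Serpina3m differs from Serpina3n at 20, Serpina3f at 24 and Serpina3j at 21 of 66 bases. Windows shared with other genes make up 6.90% of Serpina3n, 3.13% of Serpina3j, 2.92% of Serpina3b, 10.6% of Serpina3f and 19.1% of Serpina3m. For Serpina3h the share was 21.9%, mostly with Serpina3i and Serpina3g, so its level is less certain.

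Elsewhere in the same cluster, Serpina12 (vaspin, an inhibitor of the skin kallikrein Klk7) stood at 346 and 212 CPM in WT, against 78.9 and 111 in Itch KO (log2 fold change -1.56, SE 0.33, edgeR adjusted p = 0.114). Its immediate neighbours had another pattern. Serpina9 stood at 1.2 and 12.3 CPM in WT, against 24.4 and 44.1 in Itch KO, Serpina1e (of the alpha-1-antitrypsin group) at 0 and 3.47 against 3.41 and 5.67, and Serpina11 at 0 and 1.83 against 1.2 and 1.53. All 3 were lowest in WT replicate 1, where a count of 0 allows up to 0.200 CPM. WT replicate 2 lay within the Itch KO range for Serpina1e, above it for Serpina11 and below it for Serpina9. In the same libraries the summed hair markers were 38.5 CPM in WT replicate 1 and from 6195 to 8919 CPM in the others, and their part was not tested. Without WT replicate 1 the log2 fold change of Serpina11 was -0.43. Serpina11 shares 669 exonic bases, or 40.8% of its exons, with Gm28577 on the same strand. Of its windows 35.7% occur elsewhere, so its level is less certain. The Serpina1 coding sequences have a median identity of 96.4% and 34.6% of Serpina1e windows occur elsewhere. Serpina1a, Serpina1b, Serpina1c and Serpina1d, at 0 to 6 counts, are therefore uncertain. Serpina1f, at 0 or 1 count, shares 0 windows with other genes.

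**Figure D5:**
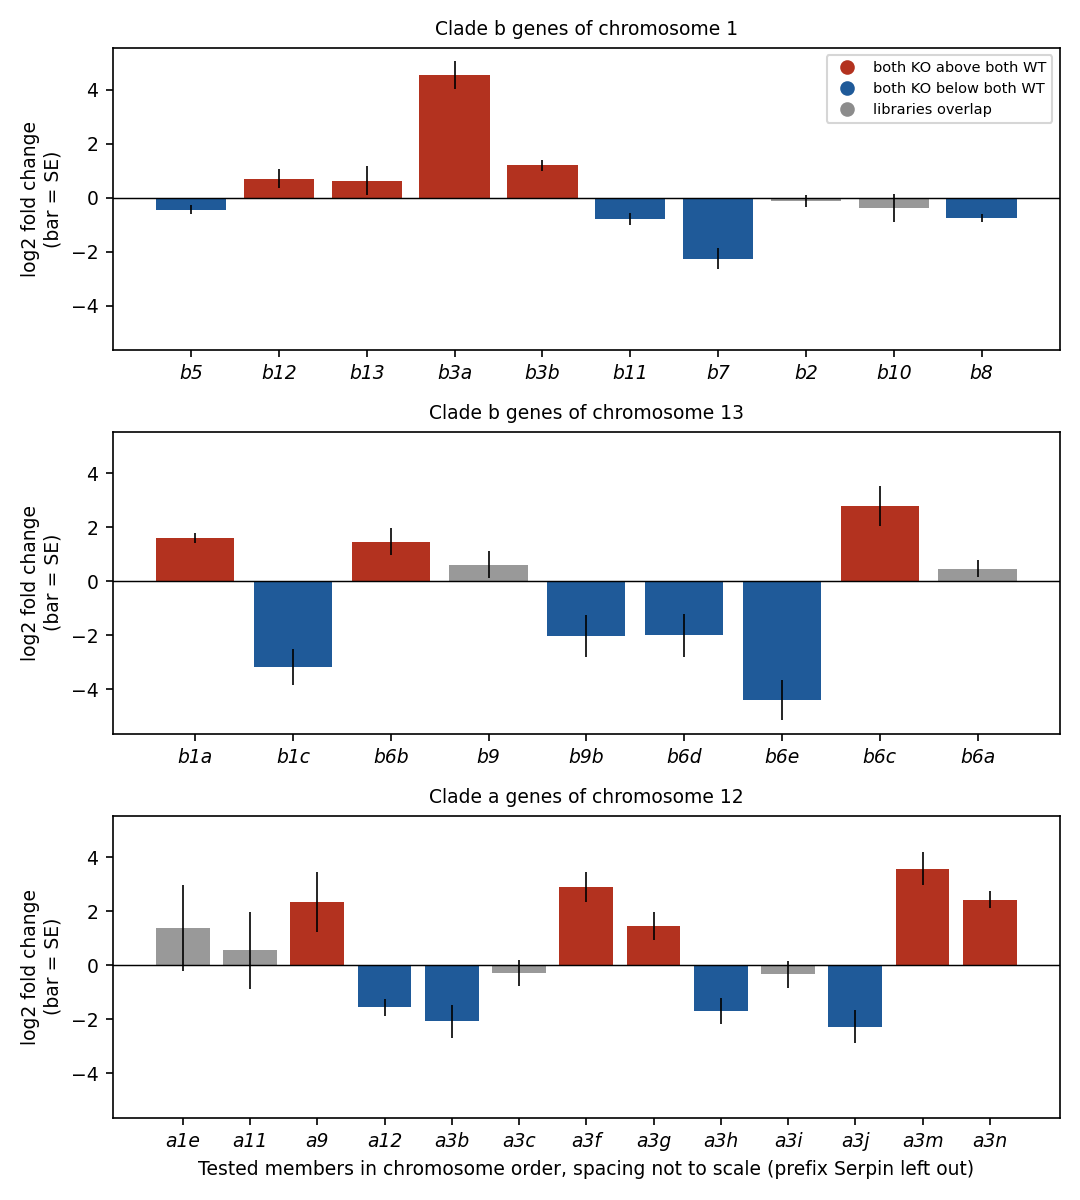
Log2 fold change of Itch KO over WT (y axis, bars with SE) for the tested members of the 3 serpin clusters in chromosome order (x axis, not to scale). Red bars have both Itch KO libraries above both WT libraries, blue bars both below, and grey bars overlap. Tested neighbours differ in sign in each cluster, as Serpinb3b and Serpinb11, Serpinb1a and Serpinb1c, and Serpina3j and Serpina3m.

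Each of the 3 gene clusters held members of both directions, as all tested genes did with 31.2% above and 30% below WT. Of the 10 tested members on chromosome 1 (clade b), 4 were higher and 4 lower in both Itch KO libraries. On chromosome 13 (clade b) 3 of 9 were higher and 4 lower, and on chromosome 12 (clade a) 5 of 13 were higher and 4 lower.

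The 24 members that were not tested had at most 25 counts in any library. Of these, 8 had 0 counts throughout: Serpinb9c, Serpinb9d, Serpinb9e, Serpinb9f, Serpinb9g, Serpina1c, Serpina7 and Serpini2. The liver serpins of plasma were among those hardly detected, as Serpina6 (corticosteroid-binding globulin) with 1 count in all, and Serpinc1 (antithrombin) with 2 and 6 counts in WT, 14 and 6 in Itch KO. Serpinc1 shares 34.4% of its exonic bases with Zbtb37 on the other strand. Serpinf2 (the plasmin inhibitor) had 18, 9, 10 and 9 counts, Serpina3k 1 and 3 against 23 and 8, Serpinb1b 3 and 3 against 25 and 4, and Serpina10 3 and 3 against 8 and 13. Serpina16, Serpina3a, Serpina5 and Serpine3 had 0 to 8 counts in a library. Summed hepatocyte markers were likewise low, from 10.9 to 38.4 CPM. At this depth a count of 0 allows up to 0.189 to 0.200 CPM per library, counting error only.

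The clusters differed in what lies before their genes. RefSeq promoters (GRCm38.p6, 250 bases before the start) were matched for 32 of the 39 tested members and searched on both strands for an AP-1 motif (TGANTCA), a STAT motif (TTCNNNGAA) and the 10-letter NF-kB consensus, and matches of different motifs that overlap each count. A member counted as holding a motif if any of its promoters did. The shares over all promoters count each promoter singly, so the units differ and a member has more chances of a match. The AP-1 motif was found for 7 of 9 clade b members of chromosome 1 and 0 of 8 clade b members of chromosome 13. It was found for 0 of 10 clade a members of chromosome 12 and 0 of 5 others. Of all 32851 promoters of that length, 6.75% held it. The 7 genes went different ways: Serpinb5, Serpinb7, Serpinb8 and Serpinb11 stood lower, Serpinb12 higher, and Serpinb2 and Serpinb10 overlapped. The STAT motif was found for 4 of 10 clade a members of chromosome 12 (Serpina3f, Serpina3g, Serpina3i and Serpina11), beside 7.02% of all promoters, and for Serpinb2 and Serpinb6a. The NF-kB consensus was in 3 of the 32 (Serpina3g, Serpina3i and Serpinh1), beside 7.25% of all promoters. A stricter form of it, searched first, was in 0 of the 32, beside 0.356%. Of the genes with a STAT or NF-kB match, Serpina3f, Serpina3g and Serpinh1 stood higher, while Serpina3i, Serpina11, Serpinb2 and Serpinb6a overlapped. Serpina3i held both motifs, as Serpina3g did. A match is a description of letters and shows no binding. The promoters of 3 genes that stood lower and of Serpina3g, which stood higher, are printed with the motifs in capitals.
Serpinb5 (GRCm38 chr1:106860925-106861174, plus strand): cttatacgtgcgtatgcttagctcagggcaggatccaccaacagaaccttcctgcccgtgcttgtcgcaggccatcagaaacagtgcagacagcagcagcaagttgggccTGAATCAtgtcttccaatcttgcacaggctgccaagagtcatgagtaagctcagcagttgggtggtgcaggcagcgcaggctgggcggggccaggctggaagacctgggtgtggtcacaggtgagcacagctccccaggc
Serpinb7 (GRCm38 chr1:107422439-107422688, plus strand): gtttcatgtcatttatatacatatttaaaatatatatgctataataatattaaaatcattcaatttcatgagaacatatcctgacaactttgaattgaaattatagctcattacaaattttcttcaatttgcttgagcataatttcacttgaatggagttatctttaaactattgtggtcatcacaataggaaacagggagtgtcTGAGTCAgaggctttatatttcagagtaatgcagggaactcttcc
Serpinb8 (GRCm38 chr1:107589756-107590005, plus strand): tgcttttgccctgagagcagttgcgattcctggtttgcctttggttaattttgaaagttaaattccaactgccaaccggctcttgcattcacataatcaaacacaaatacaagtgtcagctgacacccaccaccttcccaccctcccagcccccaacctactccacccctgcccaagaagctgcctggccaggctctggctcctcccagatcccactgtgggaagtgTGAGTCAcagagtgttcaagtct
Serpina3g (GRCm38 chr12:104235897-104236146, plus strand): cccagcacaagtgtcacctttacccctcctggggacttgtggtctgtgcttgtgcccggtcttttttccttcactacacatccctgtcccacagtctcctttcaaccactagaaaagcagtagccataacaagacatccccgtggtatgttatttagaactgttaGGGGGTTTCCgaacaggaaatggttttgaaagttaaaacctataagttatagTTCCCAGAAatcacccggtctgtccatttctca

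In these windows the AP-1 motif begins 140 bases before the start in Serpinb5, 45 in Serpinb7 and 23 in Serpinb8, and the STAT motif 33 and the NF-kB consensus 85 bases before it in Serpina3g.

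Proteases that serpins restrain, and genes that act with them, were also measured from lists. Over all tested genes, 12% were higher and 10.9% lower with an unadjusted edgeR p under 0.05. Of 10 tested leukocyte granule proteases, 9 were higher and 0 lower with an unadjusted edgeR p under 0.05 (median log2 fold change 3.52, and 3.52 with Prss34, at 0 counts in WT, at its bound). None passed over all genes. Of the targets named for Serpinb1a, Prtn3 (proteinase 3) stood lower, at 6.07 and 6.69 CPM in WT, against 3.35 and 5.73 in Itch KO. Ctsg (cathepsin G), among the 9, was low at 0.133 and 0 against 0.695 and 1.08 CPM. Elane (neutrophil elastase) was not tested, with 4 and 0 counts in WT and 9 and 1 in Itch KO. Tpsb2, a mast cell tryptase, stood at 16.9 and 23.99 CPM in WT, against 95.2 and 163 in Itch KO, and Gzma (granzyme A) at 0.200 and 0.189 against 4.23 and 2.23. Beside them, summed mast cell and basophil markers (7 of 8 higher) were 117 and 214 CPM in WT, 419 and 734 in Itch KO, and their part was not tested. The mast cell and basophil proteases Mcpt8 and Prss34 stood at 0.0667 and 0.189 against 7.58 and 12.9 CPM and at 0 and 0 against 1.01 and 1.91 CPM. In a list of genes of clotting, fibrinolysis and complement, which holds receptors and cofactors that serpins do not inhibit (Plaur, F2r, F2rl1, Thbd and F3) beside proteases, 9 of 13 were higher and 1 lower at that p (median 1.08). Plaur, the urokinase receptor that holds the plasminogen activator at the cell surface, stood at 2.87 and 6.56 CPM in WT, against 175 and 73.0 in Itch KO. The clotting factor gene F10 stood at 0.667 and 1.45 against 29.7 and 12.9 CPM. C1ra and C1s1, the complement proteases that Serping1 inhibits, stood at 22.5 and 21.2 against 102 and 73.4 CPM and at 44.1 and 36.2 against 149 and 99.01 CPM.

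A list of cysteine proteases holds cathepsins, among the targets of Serpinb3 and Serpinb13, beside the caspases Casp1, Casp4, Casp8 and Casp14. Of 10 tested, 5 were higher and 0 lower at that p (median 0.74), beside 12% and 10.9% of all tested genes. The 5 higher genes were all cathepsins. Ctss stood at 52.4 and 69.7 CPM in WT, against 569 and 393 in Itch KO, and Ctsk at 47.3 and 125 against 577 and 359. Ctsz (53.4 and 78.1 against 278 and 223 CPM) and Ctsh (138 and 159 against 291 and 249.96 CPM) were separated too. Of the epidermal kallikreins and membrane proteases, 1 of 16 was higher and 2 lower (median 0.18), shares of 6.25% and 12.5% that lie near those of all tested genes. Klk5, which starts the kallikrein cascade of the stratum corneum, stood at 228 and 299 CPM in WT, against 174 and 188 in Itch KO, and the membrane protease gene Tmprss13 at 169 and 163 against 95.4 and 108. Klk14 stood at 0.200 and 0.568 against 1.77 and 6.37 CPM, and Klk12 at 0.533 and 2.08 against 3.79 and 3.57. For all tested genes the median log2 fold change was 0.01.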

How the data were processed

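The authors deposited 1 file of read counts per Ensembl gene for each of the 4 libraries, without normalization. The build was mm10 (GRCm38) and the tools named are HTSeq 0.6.1, TopHat2, CASAVA 1.8.2 and SAMtools 0.1.19, per the submitters' processing notes. Annotation release, strand setting, read filters and the version of TopHat2: not given in the sources used here. Each file held 39179 genes and 5 special lines, which stayed out of all fits. Reads without a feature made up 5.69% to 7.45% and ambiguous reads 4.48% to 4.70%. The counter of multiply aligned reads was 0 in every file, so how reads of near-identical copies were treated is not shown.

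Symbols, GRCm38 coordinates, exon lengths and transcripts were taken from GENCODE vM21 (37693 identifiers matched). Counts were fitted in R 4.3.3 with edgeR 4.0.16 (filterByExpr at a minimum count of 10, TMM scaling, quasi-likelihood F test with robust prior, two-sided, Benjamini-Hochberg adjustment over 16651 genes). SE is the log2 fold change divided by the square root of F. CPM use TMM-scaled library sizes, and CPM per kb divide by exon length. DESeq2 1.42.0 and limma 3.58.1 (voom) were alternatives, beside other scalings and filters, each library left out, a replicate block, and fits without X and Y or muscle genes. The procedure was tested on simulated counts.

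Members and lists were chosen with earlier results of these data known. Every tested member had a mean of 1 CPM or more and is named, except 1 that is not reported here, is left out of the plots of single members and stays in the counts, medians and sums. From each list of proteases or other inhibitors the 4 genes with the smallest p are given with values. Marker lists are given as sums. Those not shown above were adipocyte (2544 and 1316 CPM in WT, 1831 and 1618 in Itch KO, 3 of 5 lower) and endothelium and platelet (278 and 129.9, 392 and 361, 4 of 6 higher). T and NK cell markers summed to 58.8 and 36.5 against 66.8 and 46.4 CPM (4 of 6 tested higher). Their part was not tested. The granule proteases named as targets of Serpinb1a are given as well, as are the other inhibitors that were lower at an unadjusted edgeR p under 0.05. Coding identity is over global alignments of the longest coding sequence, and shared windows are 50-base stretches of a gene's transcripts found unchanged in another gene on either strand. Promoters are from RefSeq.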

Additional observations from a re-analysis of the deposited data

How the results depend on the processing

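Under edgeR, 1 gene passed over all genes. The count was 2329 with DESeq2, 488 with no filter on low counts, 0 with limma-voom (3582 genes with an unadjusted p under 0.05), 0 with the replicate block, 0 without X and Y genes, and 0 to 5320 with a library left out. Of the serpins 0 passed, against 22 with DESeq2, 7 with no filter, and 0 to 24 with a library left out. Serpins lower at an unadjusted p under 0.05 numbered 10, and 6 to 11 with a library left out. The clade b median of -0.13 was 0.16 at a minimum count of 30, 0.25 with no filter and -0.11 to 0.20 with a library left out. Of the proteases and other inhibitors 0 passed, against 35 with DESeq2, 8 with no filter and 0 to 43 with a library left out, alternatives for that list chosen after seeing the data. The causes were not tested. Without WT replicate 1, 7 named members changed sign, all with overlapping libraries. With a library left out, log2 fold changes ran from -0.35 to 0.15 (Serpinb2), -0.85 to 0.25 (Serpinb10), -0.78 to 0.49 (Serpina3c) and -0.83 to 0.43 (Serpina3i). For Serpind1 they ran from -0.71 to 0.51, and for Serpini1 from -0.13 to 1.70. Serpina11 was at -0.43 without WT replicate 1. Without WT replicate 2 its remaining WT library had 0 counts, so the fitted 7.41 does not measure a size. No other alternative reversed a named member. The labels share replicate numbers but do not say that they pair samples (correlation of same-numbered deviations 0.19). With the replicate block 0 serpins passed, 16 stood higher and 10 lower with an unadjusted p under 0.05, the medians were -0.11 in clade b and 1.23 in the secreted clades, the gap was -1.34, and 0 proteases and inhibitors passed. The depth of 15144957 to 16008351 counts limits members under 1 CPM.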

Other observations

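Protease inhibitors outside the serpin superfamily stood higher more often than lower, and the share that was lower lay near that of all tested genes. Of 20 tested members of a list of stefins, cystatins, Kunitz, Kazal and WAP-type inhibitors, tissue inhibitors of metalloproteinases and related genes, 10 were higher and 2 lower with an unadjusted edgeR p under 0.05, beside 12% and 10.9% of all tested genes, and 0 passed over all genes. Stfa2l1, a stefin that inhibits cysteine cathepsins and is known from neutrophils, stood at 0.0667 and 0.189 CPM in WT, against 80.2 and 17.0 in Itch KO. Tfpi2, a Kunitz inhibitor of matrix, stood at 0.867 and 2.34 against 14.7 and 10.3 CPM. Csta1, another stefin, was abundant in both groups at 128 and 125 against 197 and 198 CPM, with hardly any spread within a group (log2 fold change 0.64, SE 0.14, edgeR adjusted p = 0.116). Timp2, an inhibitor of metalloproteinases, stood at 347 and 271 against 799 and 580.3 CPM. For each of these 4 genes both Itch KO libraries lay above both WT libraries. The 2 lower genes were Spink5, at 912 and 649 CPM in WT against 449 and 417 in Itch KO, and Timp3. The latter stood at 142 and 119.9 CPM in WT, against 72.5 and 81.8 in Itch KO.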
